A study of Homo sapiens with 12 samples.

Results

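The genes described here are 52 genes that act in mitosis and at the passage from G2 into mitosis, with the kinase gene WEE1 among them. The rule uses their names and no measured value: the Ensembl identifiers of the deposited table were matched to GENCODE gene symbols, and the rows of the 52 listed symbols were taken. All 52 were among the 26058 genes listed, all were protein coding, and all passed the filter on low values that left 22067 genes for testing. The study asked whether the response of growth factor-stimulated cells to cordycepin requires the energy-sensing kinase AMPK. It used HEK293, an established human embryonic kidney cell line, as wild type (WT) and as cells in which both catalytic subunits of AMPK had been knocked out (AMPK KO). Cordycepin is 3′-deoxyadenosine, an adenosine analogue without the hydroxyl group from which an RNA chain is extended.

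There were 6 groups of 2 libraries, 12 in all, with the replicate numbers 2 and 3. Every group was kept in low serum for 24 h before treatment, so all controls were starved cells. In WT and in AMPK KO alike, 1 group received the solvent DMSO without growth factor (DMSO), 1 received DMSO and then epidermal growth factor for the last 30 of 50 min (DMSO+EGF), and 1 received 25 µM cordycepin for 50 min with EGF for the last 30 min (cordycepin+EGF). No group had cordycepin without EGF. For the DMSO groups the sources name a time of 20 min in one place and of 50 min in another. The AMPK KO cells are 1 line, so a difference between AMPK KO and WT is a difference between these 2 lines, and how far it comes from the knockout cannot be told apart from other differences between them. The libraries of a group are described as biological replicates, without a word on whether they were separate cultures, and the p-values measure only the spread between these libraries.

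Entry into mitosis is set by the kinase CDK1 with its partners cyclin A2 and the B cyclins. WEE1 holds CDK1 inactive by phosphorylating it, the CDC25 phosphatases remove that mark, and PLK1 and the Aurora kinases drive the switch and the building of the spindle. The checkpoint kinases and the NDC80 complex watch over and make the attachment of chromosomes to microtubules, after which the anaphase promoting complex with its activator CDC20 destroys securin and the cyclins. Transcription of many of these genes is held low by the DREAM complex in resting cells and driven by MuvB with B-MYB and FOXM1 in G2, through promoter elements named CHR and CCAAT box. The RNA in these libraries comes from whole populations, so fewer cells in G2 or mitosis and less RNA per cell cannot be told apart.

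Reads recovered from the RPKM values ranged from 3806335 in WT DMSO replicate 3 to 25104904, and the next shallowest library had 12016743. In WT DMSO replicate 3 the 51 members with recovered reads had 17 to 5800 reads (median 376), against 22 to 36761 (median 1615) in the other libraries. CENPF was the 1 member whose values did not give whole reads at the annotated length. PRKAA1, the gene of the first catalytic subunit of AMPK, averaged 18.7 scaled RPKM in WT DMSO and 7.39 in AMPK KO DMSO (log2 fold change -1.26, adjusted p = 0.0228), and PRKAA2 averaged 10.1 and 5.75 (-0.73, adjusted p = 0.112). EGR1, an immediate early gene, had a log2 fold change with EGF of 6.16 in WT and of 5.28 in AMPK KO. Of the markers of HEK293, NEFL, VIM, KRT8 and KRT18 ranged from 8.26 to 82.7 scaled RPKM, while PAX2, LHX1 and NEFM stayed below 1. Of the markers of other cells, PTPRC of blood cells reached at most 0.0607 and the fibroblast gene COL1A1 at most 1.20, and ALB and CDH5 were not among the listed genes.

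Levels are given as RPKM (reads per kilobase of gene, corrected for library size) after scaling each library to a common upper quartile, called scaled RPKM here, so that genes are compared per length. The 52 genes were readily measured in these starved cells. TPX2, which targets Aurora A to the spindle, had the highest mean over the 12 libraries at 99.5, followed by the DNA topoisomerase TOP2A at 98.2, the proliferation marker MKI67 at 90.8 and the cyclin gene CCNB1 at 77.9. WEE1 was among the lower members, between 8.39 and 12.8. BORA, the activator of Aurora A and PLK1, averaged 4.99, PRC1, the cross-linker of spindle midzone microtubules, 2.10, and the spindle protein gene NUSAP1 0.744. In PRC1, 61.9% of the exonic bases are also exonic in another annotated gene, in NUSAP1 86.8% and in BORA 37%, and how reads over such bases were counted is not given in the sources used here, so the levels of these 3 genes are uncertain. Among the other members, 16 had a smaller overlap, of at most 12.8% (PLK1), and 33 had none. Pseudogenes with the same name are annotated for 15 members, among them WEE1, CKS1B, UBE2C and DLGAP5, and reads could have been split between the copies.

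What the 52 genes share beyond their names was examined in their promoters, as the 250 bases before the transcription start in RefSeq (GRCh38.p14). A promoter was matched for 44 members, and none was at hand for WEE1, AURKA, TPX2, BIRC5, BUB3, TTK, UBE2C and RACGAP1. The CHR element was searched as TTTGAA or TTCAAA and the CCAAT box as CCAAT or ATTGG, so on both strands, and the words of the 2 motifs can share 1 letter at their ends. The CHR word was in 25 of 44 member promoters (56.8%), in 23 of the 116 matched promoters of 135 further mitosis genes (19.8%), a list described after the members, and in 1206 of 13443 promoters of listed genes (8.97%). A CCAAT word was in 36 (81.8%), 54 (46.6%) and 4652 (34.6%), and a CHR word with 2 or more CCAAT words in 15 (34.1%), 9 (7.76%) and 159 (1.18%). The CArG box, the serum response element of EGF-responsive genes such as EGR1, was in 0 of 44, 0 of 116 and 133 of 13443 (0.989%). A match is a run of letters and not a shown site of binding. The promoters of DLGAP5, ECT2 and KIF4A are shown because these were 3 of the 4 members with the smallest p when cordycepin+EGF was compared with DMSO+EGF over both lines, that of PLK1 because it had the smallest p in WT and in the test of a difference between the lines, and that of NDC80 because it was the 1 member called between the lines. They are written 5′ to 3′ on the gene's strand with the CHR and CCAAT words in capitals, and lie at chr14:55191586-55191835 for DLGAP5 (minus strand), chr3:172750476-172750725 for ECT2 (plus strand), chrX:70289854-70290103 for KIF4A (plus strand), chr16:23678639-23678888 for PLK1 (plus strand) and chr18:2571307-2571556 for NDC80 (plus strand).
DLGAP5: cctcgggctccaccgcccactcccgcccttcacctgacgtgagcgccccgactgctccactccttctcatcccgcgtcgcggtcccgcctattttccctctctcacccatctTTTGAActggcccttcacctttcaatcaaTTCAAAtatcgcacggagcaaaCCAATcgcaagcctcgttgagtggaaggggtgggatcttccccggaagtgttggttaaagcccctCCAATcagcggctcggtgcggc
ECT2: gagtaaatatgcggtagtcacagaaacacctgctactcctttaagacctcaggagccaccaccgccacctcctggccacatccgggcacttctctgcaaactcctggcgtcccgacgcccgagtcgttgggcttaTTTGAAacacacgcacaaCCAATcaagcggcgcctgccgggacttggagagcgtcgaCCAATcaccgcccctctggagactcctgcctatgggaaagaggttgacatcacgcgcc
KIF4A: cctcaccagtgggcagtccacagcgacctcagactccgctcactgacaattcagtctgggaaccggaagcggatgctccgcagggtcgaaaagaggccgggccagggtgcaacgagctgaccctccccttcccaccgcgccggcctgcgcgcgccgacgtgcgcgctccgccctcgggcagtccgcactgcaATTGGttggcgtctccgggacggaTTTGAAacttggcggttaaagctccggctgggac
PLK1: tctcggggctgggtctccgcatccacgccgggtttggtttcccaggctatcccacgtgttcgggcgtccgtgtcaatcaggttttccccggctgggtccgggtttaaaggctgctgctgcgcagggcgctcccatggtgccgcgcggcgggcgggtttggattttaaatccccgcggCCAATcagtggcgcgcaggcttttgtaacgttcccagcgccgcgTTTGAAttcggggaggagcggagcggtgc
NDC80: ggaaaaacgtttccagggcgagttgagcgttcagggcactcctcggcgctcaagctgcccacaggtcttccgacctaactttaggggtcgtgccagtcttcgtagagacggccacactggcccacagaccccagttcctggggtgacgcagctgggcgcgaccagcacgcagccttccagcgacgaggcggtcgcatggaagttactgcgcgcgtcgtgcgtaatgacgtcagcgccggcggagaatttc
DLGAP5 holds 2 CHR words and 2 CCAAT words, ECT2 a CHR word and 2 CCAAT words, KIF4A and PLK1 a CHR word and 1 CCAAT word, and NDC80 none of these words in this window.

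Most of the mitosis genes were lower with cordycepin+EGF than with DMSO+EGF, by small amounts. As the mean of both lines, 50 of 52 had a log2 fold change below 0, and only SPC25 and NUSAP1 were above it. The median of the 52 was -0.20, a level of 0.871 times that with DMSO+EGF, beside a median of 0.021 over all 22067 tested genes and of -0.038 over the 12822 protein-coding ones. Below 0 were 46.7% of all tested and 57.5% of protein-coding genes. No member passed an adjusted p of 0.05 in limma, as against 0.965% of all tested genes, and the smallest adjusted p was 0.0899. At an unadjusted p under 0.05, 19 members were lower and 0 higher, beside 5.25% lower and 10.0% higher of all tested genes and 7.47% lower of the protein-coding ones. By voom on recovered reads 0 of 51 passed the adjustment, beside 2.97% of the 21245 genes in that fit. At the unadjusted threshold 14 members were lower and 0 higher, beside 775 and 3008 of the 21245 genes. With median-ratio scaling in place of the upper quartile 26 members were lower and 0 higher, and of all tested genes 1819 were higher and 1924 lower at the unadjusted threshold, against 2206 and 1158. Over the 25 members with a CHR word in the promoter the median was -0.18 (from -0.32 to 0.050) and over the 19 without it -0.19 (from -0.36 to 0.072).

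**Figure D1:**
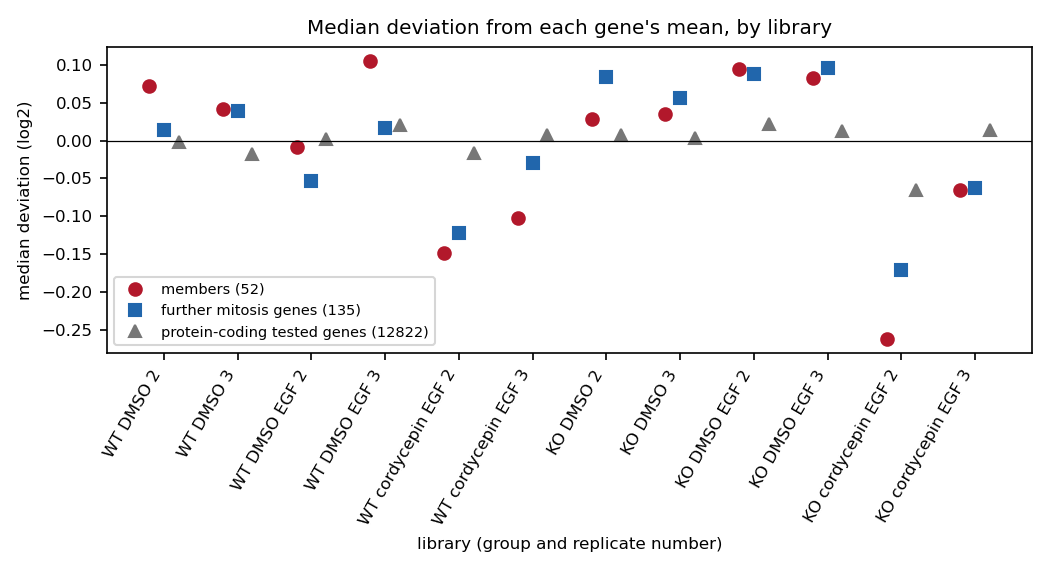
Median over genes of the deviation of log2(scaled RPKM + 0.5) from each gene's mean over the 12 libraries (y axis, log2), for the 52 genes (red circles), 135 further mitosis genes (blue squares) and all protein-coding tested genes (grey triangles), with 1 library at each place on the x axis. The 4 cordycepin libraries hold the 4 lowest values of the 52 genes, -0.26, -0.15, -0.10 and -0.065, and the other 8 lie between -0.0083 and 0.11.

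The 4 cordycepin libraries had the 4 lowest medians of the 52 genes when each gene was set against its own mean over the 12 libraries. The median deviation was -0.15 and -0.10 on the log2 scale in the WT cordycepin+EGF libraries and -0.26 and -0.065 in those of AMPK KO, and it ran from -0.0083 to 0.11 in the other 8. The 2 AMPK KO libraries with cordycepin stood apart from each other: 44 of 52 members were higher in replicate 3 than in replicate 2, with a median difference of 0.21, whereas the median difference between replicates was between -0.021 and 0.078 in the other 5 groups. Over all protein-coding genes the median deviation of AMPK KO cordycepin+EGF replicate 2 was -0.065, the lowest of the 12. CCNA2, TPX2, KIF23 and DLGAP5 were lower in all 4 cordycepin libraries than in all 8 others, 4 of 52 members beside 0.612% of all tested genes. For TPX2 this rests on 93.51 scaled RPKM in WT cordycepin+EGF replicate 3 against 93.52 in AMPK KO DMSO replicate 2.

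**Figure D2:**
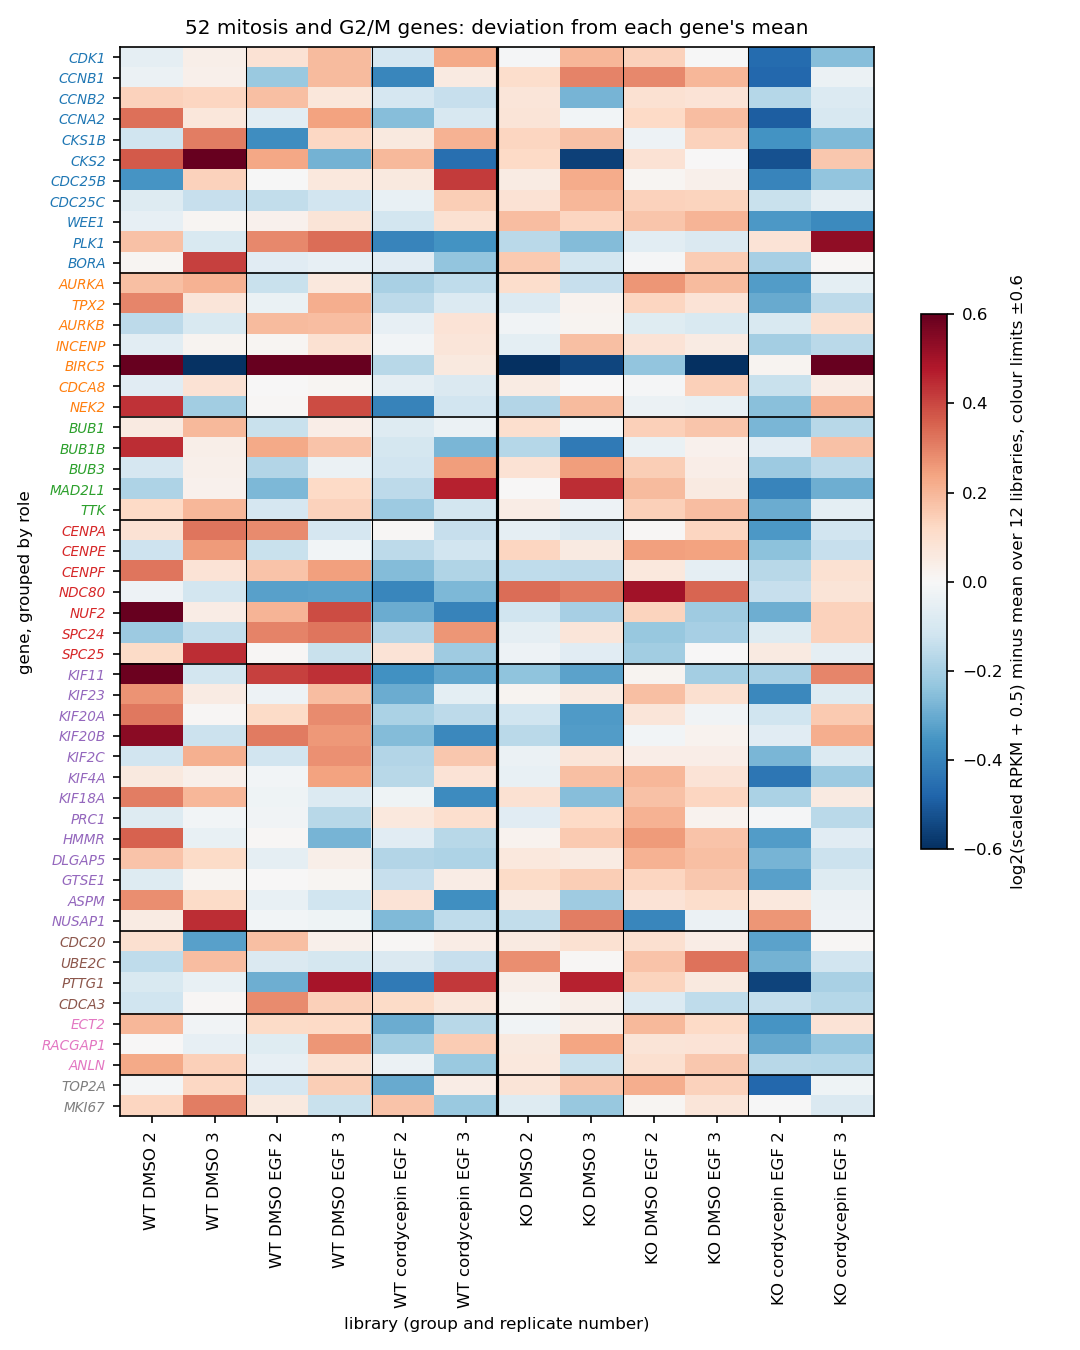
Deviation of log2(scaled RPKM + 0.5) from each gene's mean over the 12 libraries (colour, limits ±0.6) for the 52 genes (rows, grouped by role, names coloured by role) in each library (columns, group and replicate number). Blue predominates in both cordycepin groups, most of all in AMPK KO cordycepin+EGF replicate 2, where the median is -0.26, and BIRC5, PLK1 and KIF11 run against it in AMPK KO cordycepin+EGF replicate 3.

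In WT alone, 44 of 52 members were below 0 with cordycepin, with a median log2 fold change of -0.13 (0.033 over all tested and -0.0056 over protein-coding genes). No member passed the adjustment (0.00453% of all tested genes did, smallest adjusted p of a member 0.252), while voom on recovered reads called 2 of 51, PLK1 and KIF11, beside 3.66% of all genes in that fit. At an unadjusted p under 0.05, 9 members were lower and 0 higher, beside 7.13% and 8.86% of all tested genes and 10.0% lower of the protein-coding ones. The median was -0.083 without WT DMSO+EGF replicate 3 and -0.18 without replicate 2 of that group. The count of 9 was smaller whenever a WT library with EGF was left out, which leaves its group without replication. The number of lower genes over all tested genes was smaller in each of these fits too. With median-ratio scaling 10 members were lower, and of all tested genes 1549 were higher and 2015 lower, against 1955 and 1574. In 23 members both cordycepin libraries lay under both DMSO+EGF libraries, beside 24.7% of all tested genes. Within both replicate numbers 34 members were lower with cordycepin, beside 33.2% of all tested genes. In 17 members the cordycepin libraries were the lowest 2 of all 6 WT libraries, beside 10.7% of all tested genes.

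In AMPK KO, 42 of 52 members were below 0, with a median log2 fold change of -0.26 (0.056 over all tested and -0.031 over protein-coding genes). Of all tested genes 18.4% were below 0 in both lines, and a further 26.5% were below 0 in AMPK KO and above 0 in WT. Here too no member passed the adjustment, as 0.471% of all tested genes did, and WEE1 came nearest at an adjusted p of 0.0574. When 1 or the other of the WT DMSO libraries was left out, which take no part in this comparison but in its estimate of the spread, 4 members passed (WEE1, DLGAP5, NDC80 and CENPE), beside 6.16% and 6.12% of all tested genes in those fits. At an unadjusted p under 0.05, 20 members were lower and 1, PLK1, higher, beside 10.1% and 11.7% of all tested genes and 15.1% lower of the protein-coding ones, and voom had 1 call of 51 (WEE1), beside 4.95% of all genes in that fit. With median-ratio scaling 22 members were lower and 0 higher, so that PLK1 did not pass, and of all tested genes 2180 were higher and 2748 lower, against 2578 and 2227. The count of 20 was smaller whenever 1 AMPK KO library with EGF was left out, which leaves 1 library in its group. The number over all tested genes was smaller too, except without cordycepin+EGF replicate 3, where the count of 20 moved least. The median was -0.20 without cordycepin+EGF replicate 2 and -0.37 without replicate 3. In 35 members both cordycepin libraries lay under both DMSO+EGF libraries (27.0% of all tested genes), and in 28 they were the lowest 2 of the 6 AMPK KO libraries (19.8% of all tested genes).

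The comparisons in WT and in AMPK KO share no library. Of the 52 members, 34 (65.4%) were below 0 in both and 0 were above 0 in both, beside 18.4% of all tested genes below 0 in both. In 8 members the cordycepin libraries lay under the DMSO+EGF libraries without overlap in both lines, beside 3.99% of all tested genes. These were CCNB2, CCNA2, AURKA, TPX2, TTK, KIF23, DLGAP5 and ECT2. No member was lower at an unadjusted p under 0.05 in both lines, and 29 were so in 1 of them. In the mean of both lines the count of 19 was smallest without WT DMSO+EGF replicate 3 or AMPK KO cordycepin+EGF replicate 2. It was also smaller without any 1 library of the AMPK KO DMSO+EGF and AMPK KO DMSO groups, the latter taking no part in this comparison. The same held without WT DMSO+EGF replicate 2 or WT cordycepin+EGF replicate 2. Each of these fits leaves 1 library in a group, and the number over all tested genes was smaller in them too. Whichever library was left out, 46 to 50 members were below 0, and the median of the 52 ran from -0.26 to -0.13.

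**Figure D3:**
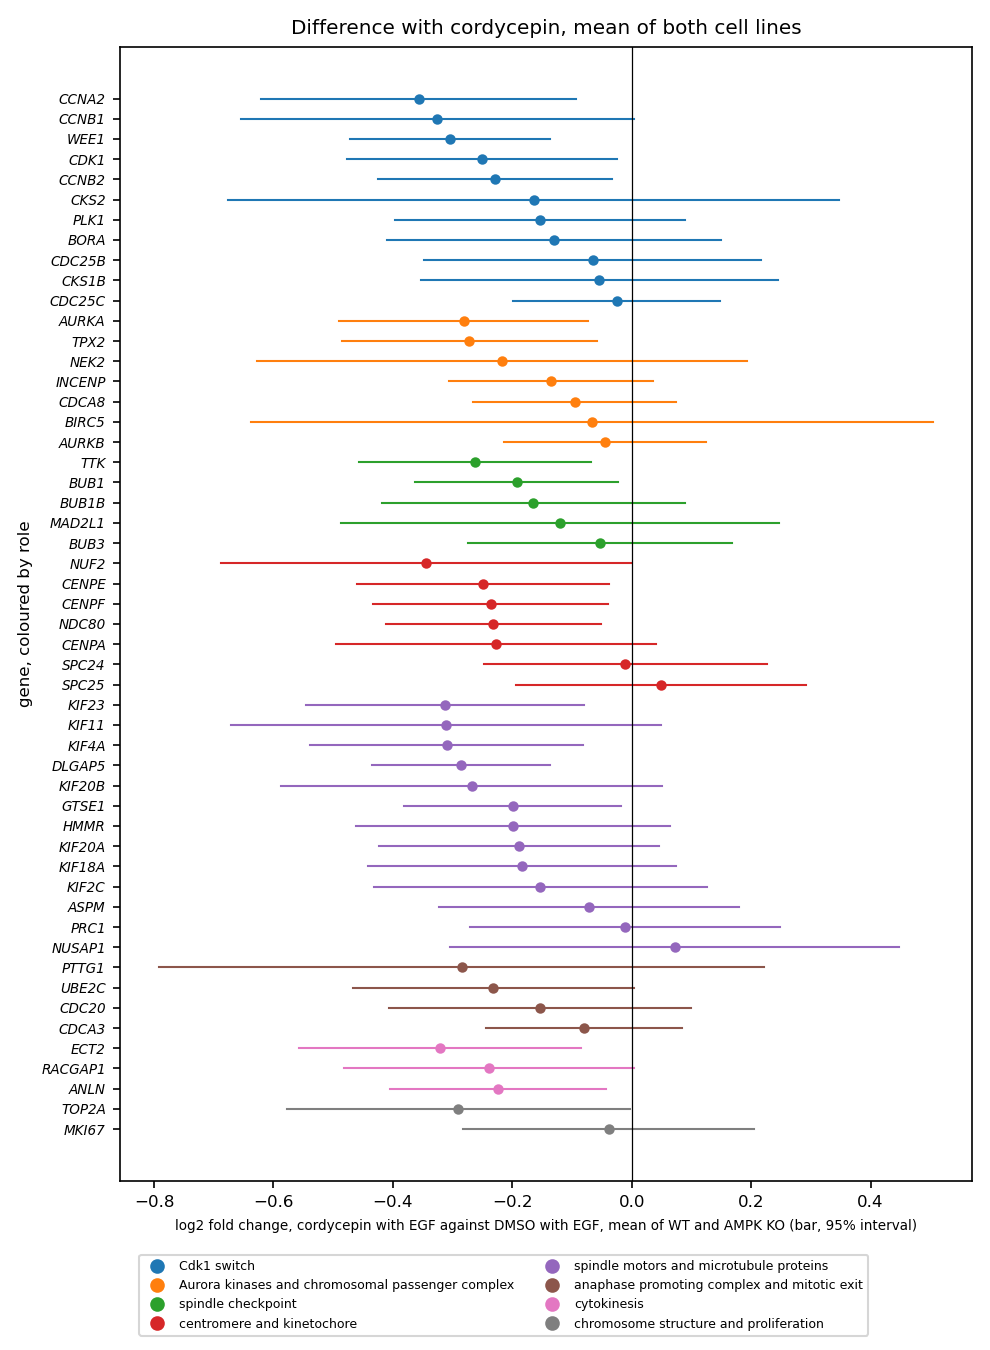
Log2 fold change with cordycepin+EGF against DMSO+EGF as the mean of WT and AMPK KO (x axis, point with 95% interval) for each of the 52 genes (y axis), ordered by role and coloured by it. Of the 52 points 50 lie left of 0, between -0.36 for CCNA2 and 0.072 for NUSAP1, and the intervals of 19 genes do not reach 0.

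Of the 11 genes of the CDK1 switch (CDK1, CCNB1, CCNB2, CCNA2, CKS1B, CKS2, CDC25B, CDC25C, WEE1, PLK1 and BORA), all were below 0 in the mean of both lines, with a median of -0.16, and 4 were lower at an unadjusted p under 0.05 (CDK1, CCNB2, CCNA2 and WEE1). Beside this and the role groups that follow, 53.3% of all tested genes were above 0 in that mean and 5.25% were lower at that threshold. In WT alone 46.5% of all tested genes were below 0. In AMPK KO these were the 18.4% below 0 in both lines and a further 26.5% above 0 in WT. WEE1 stood at 10.7 and 11.2 scaled RPKM in the WT libraries with DMSO, at 11.3 and 11.7 with DMSO+EGF and at 10.2 and 11.8 with cordycepin+EGF. In AMPK KO WEE1 stood at 12.7 and 12.1 with DMSO, at 12.5 and 12.8 with DMSO+EGF and at 8.60 and 8.39 with cordycepin+EGF. The AMPK KO libraries with cordycepin were the lowest of the 12 and did not overlap with any other group, while in WT those with cordycepin lay on both sides of those without. The log2 fold change of WEE1 with cordycepin was -0.55 (unadjusted p = 0.000539, adjusted p = 0.0574, SE 0.105) in AMPK KO, a level of 0.684 times that with DMSO+EGF, and -0.059 (adjusted p = 0.798, SE 0.105) in WT. CDK1 stood at 25.1 and 26.8 scaled RPKM in the WT libraries with DMSO, at 27.8 and 29.9 with DMSO+EGF and at 24.3 and 30.7 with cordycepin+EGF. In AMPK KO CDK1 stood at 26 and 30.1 with DMSO, at 28.8 and 26.1 with DMSO+EGF and at 18.8 and 21.8 with cordycepin+EGF. The AMPK KO libraries with cordycepin were again the lowest 2 of the 12, and the WT groups overlapped. For CDK1, the kinase at the centre of the switch, the log2 fold change was -0.43 (adjusted p = 0.139, SE 0.141) in AMPK KO and -0.075 (adjusted p = 0.812, SE 0.141) in WT.

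CCNB1 stood at 75 and 78.4 scaled RPKM in the WT libraries with DMSO, at 65.8 and 87.7 with DMSO+EGF and at 58.4 and 79.8 with cordycepin+EGF. In AMPK KO CCNB1 stood at 82.6 and 94.5 with DMSO, at 94 and 88.4 with DMSO+EGF and at 55.3 and 74.9 with cordycepin+EGF. In AMPK KO both cordycepin libraries lay under both with DMSO+EGF, and in WT the groups overlapped, with replicate 3 above replicate 2 in every group and the cordycepin library under the DMSO+EGF library of its own number. The log2 fold change of CCNB1, which encodes cyclin B1, was -0.50 (adjusted p = 0.205, SE 0.206) in AMPK KO and -0.15 (adjusted p = 0.727, SE 0.206) in WT. Cyclin A2 and cyclin B2, the other cyclins, had -0.36 (CCNA2) and -0.23 (CCNB2) in the mean of both lines. PLK1 stood at 29.8 and 24.7 scaled RPKM in the WT libraries with DMSO, at 32.3 and 33.3 with DMSO+EGF and at 19.9 and 20.5 with cordycepin+EGF. In AMPK KO PLK1 stood at 23.5 and 21.9 with DMSO, at 25.2 and 24.8 with DMSO+EGF and at 27.9 and 38.3 with cordycepin+EGF. PLK1, the polo-like kinase that activates CDC25 and recruits spindle factors, was lower with cordycepin in WT and higher with it in AMPK KO, with no overlap in either line. Its log2 fold change was -0.69 (unadjusted p = 0.00143, adjusted p = 0.252, SE 0.152) in WT and 0.38 (adjusted p = 0.191, SE 0.152) in AMPK KO. The phosphatase genes CDC25B and CDC25C and the CDK1-binding subunit gene CKS1B were above 0 in WT and below 0 in AMPK KO, with log2 fold changes of 0.21 and -0.34, 0.18 and -0.23, and 0.26 and -0.37. CKS2 and BORA were below 0 in both lines.

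**Figure D4:**
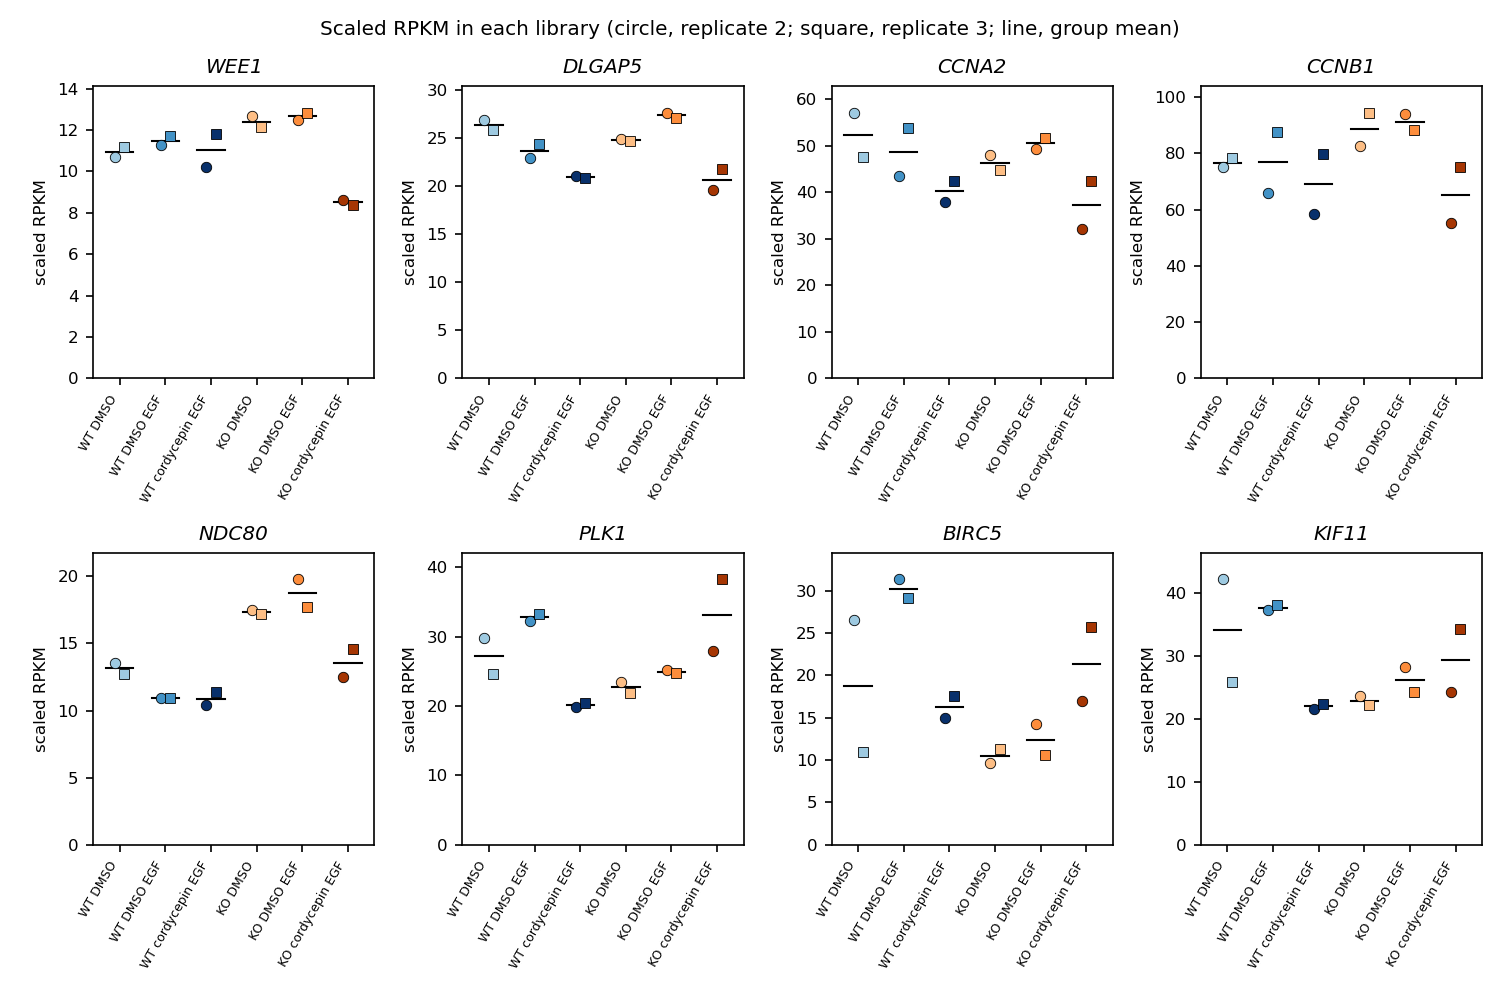
Scaled RPKM (y axis, from 0) in each of the 12 libraries for 8 of the genes, by group (x axis), with replicate 2 as a circle, replicate 3 as a square and the group mean as a line. WEE1 is lowest in the 2 AMPK KO cordycepin+EGF libraries (8.60 and 8.39), NDC80 is higher in AMPK KO than in WT within every treatment, and PLK1, BIRC5 and KIF11 are lower with cordycepin in WT while their highest AMPK KO library is cordycepin+EGF replicate 3.

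A group of 7 genes held the Aurora kinases, the chromosomal passenger complex and, set with them, TPX2 and NEK2 (AURKA, TPX2, AURKB, INCENP, BIRC5, CDCA8 and NEK2). All were below 0 with cordycepin in WT and 4 in AMPK KO. AURKB stood at 57.2 and 59.9 scaled RPKM in the WT libraries with DMSO, at 72.9 and 72.5 with DMSO+EGF and at 61.6 and 67.5 with cordycepin+EGF. In AMPK KO AURKB stood at 62.8 and 64.5 with DMSO, at 60.6 and 59.9 with DMSO+EGF and at 59.7 and 68.2 with cordycepin+EGF. In WT the cordycepin libraries lay between the other 2 groups, and in AMPK KO the groups overlapped. AURKB, the catalytic subunit of the passenger complex, had a log2 fold change of -0.17 (adjusted p = 0.432, SE 0.106) in WT and 0.082 (adjusted p = 0.680, SE 0.106) in AMPK KO. AURKA stood at 36.4 and 37.2 scaled RPKM in the WT libraries with DMSO, at 29.2 and 33.5 with DMSO+EGF and at 28 and 28.8 with cordycepin+EGF. In AMPK KO AURKA stood at 34.5 and 29.1 with DMSO, at 38.7 and 36.7 with DMSO+EGF and at 25.3 and 30.8 with cordycepin+EGF. Both cordycepin libraries were the lowest of their line for the spindle kinase AURKA in WT and lay under both DMSO+EGF libraries in AMPK KO, with -0.28 (adjusted p = 0.213, SE 0.0922) in the mean of both lines and -0.43 (adjusted p = 0.121, SE 0.130) in AMPK KO. BIRC5 stood at 26.6 and 11 scaled RPKM in the WT libraries with DMSO, at 31.4 and 29.1 with DMSO+EGF and at 14.9 and 17.5 with cordycepin+EGF. In AMPK KO BIRC5 stood at 9.67 and 11.3 with DMSO, at 14.2 and 10.6 with DMSO+EGF and at 17 and 25.7 with cordycepin+EGF. BIRC5, which encodes the passenger protein survivin, had the largest SE of the members, and WT DMSO replicate 3, the shallowest library, lay far under replicate 2. Its log2 fold change with cordycepin was -0.88 (adjusted p = 0.291, SE 0.357) in WT and 0.75 (adjusted p = 0.261, SE 0.357) in AMPK KO. TPX2 was at -0.27 (adjusted p = 0.234, SE 0.0944) in the mean of both lines, and INCENP, CDCA8 and NEK2 did not pass the unadjusted threshold there.

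Of the 5 spindle checkpoint genes (BUB1, BUB1B, BUB3, MAD2L1 and TTK), all were below 0 in the mean of both lines, from -0.26 for TTK, the kinase that starts the checkpoint, to -0.053 for BUB3. BUB1 stood at 21.2 and 23.5 scaled RPKM in the WT libraries with DMSO, at 18.6 and 21 with DMSO+EGF and at 19.4 and 19.9 with cordycepin+EGF. In AMPK KO BUB1 stood at 22 and 20.3 with DMSO, at 22.6 and 23 with DMSO+EGF and at 16.8 and 18.1 with cordycepin+EGF. The WT groups overlapped, and in AMPK KO the cordycepin libraries were the lowest 2 of 6. BUB1, a checkpoint kinase at the kinetochore, had a log2 fold change of -0.38 (adjusted p = 0.105, SE 0.106) in AMPK KO and -0.010 (adjusted p = 0.972, SE 0.106) in WT. BUB1B stood at 30.1 and 22.6 scaled RPKM in the WT libraries with DMSO, at 25.9 and 24.9 with DMSO+EGF and at 20.4 and 18.1 with cordycepin+EGF. In AMPK KO BUB1B stood at 19.5 and 16.3 with DMSO, at 21.4 and 22.5 with DMSO+EGF and at 21 and 25 with cordycepin+EGF. In WT the cordycepin libraries of BUB1B, which encodes the checkpoint protein BUBR1, were the lowest 2 of 6, and in AMPK KO they overlapped with DMSO+EGF. The log2 fold change was -0.39 (adjusted p = 0.291, SE 0.158) in WT and 0.061 (adjusted p = 0.852, SE 0.158) in AMPK KO.

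Of the 7 centromere and kinetochore genes (CENPA, CENPE, CENPF, NDC80, NUF2, SPC24 and SPC25), all were below 0 in WT and 5 in AMPK KO. NDC80 stood at 13.5 and 12.8 scaled RPKM in the WT libraries with DMSO, at 10.9 and 10.9 with DMSO+EGF and at 10.4 and 11.4 with cordycepin+EGF. In AMPK KO NDC80 stood at 17.5 and 17.2 with DMSO, at 19.8 and 17.7 with DMSO+EGF and at 12.5 and 14.6 with cordycepin+EGF. NDC80, the microtubule-binding subunit of the complex that bears its name, overlapped between the WT groups with EGF, and its AMPK KO libraries with cordycepin were the lowest 2 of that line. With cordycepin its log2 fold change was -0.46 (adjusted p = 0.0830, SE 0.112) in AMPK KO and -0.0063 (adjusted p = 0.983, SE 0.112) in WT. CENPF stood at 34.8 and 29.4 scaled RPKM in the WT libraries with DMSO, at 31.3 and 33 with DMSO+EGF and at 23.1 and 24.4 with cordycepin+EGF. In AMPK KO CENPF stood at 24.9 and 24.9 with DMSO, at 29 and 26.7 with DMSO+EGF and at 24.7 and 29.6 with cordycepin+EGF. In WT the cordycepin libraries of CENPF, a large kinetochore protein gene, lay under the other 4, and in AMPK KO they overlapped with the rest. Its log2 fold change was -0.43 (adjusted p = 0.267, SE 0.123) in WT and -0.043 (adjusted p = 0.868, SE 0.123) in AMPK KO. In the mean of both lines the partners of NDC80 were at -0.34 for NUF2, -0.011 for SPC24 and 0.050 for SPC25. The kinetochore motor gene CENPE was at -0.25, and CENPA, the histone variant that marks centromeres, at -0.23.

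Of the 13 genes of spindle motors and microtubule proteins (KIF11, KIF23, KIF20A, KIF20B, KIF2C, KIF4A, KIF18A, PRC1, HMMR, DLGAP5, GTSE1, ASPM and NUSAP1), 12 were below 0 in the mean of both lines and 4 were lower at an unadjusted p under 0.05 (KIF23, KIF4A, DLGAP5 and GTSE1), beside 5.25% of all tested genes. DLGAP5 stood at 26.9 and 25.9 scaled RPKM in the WT libraries with DMSO, at 23 and 24.5 with DMSO+EGF and at 21.1 and 20.9 with cordycepin+EGF. In AMPK KO DLGAP5 stood at 24.9 and 24.7 with DMSO, at 27.7 and 27.1 with DMSO+EGF and at 19.6 and 21.8 with cordycepin+EGF. The 4 cordycepin libraries of DLGAP5, which encodes a spindle protein of the kinetochore fibres, were its lowest 4. It had the smallest p of all members in the mean of both lines, with a log2 fold change of -0.29 (unadjusted p = 0.00196, adjusted p = 0.0899, SE 0.0662), and -0.40 (adjusted p = 0.0753, SE 0.0936) in AMPK KO. KIF4A stood at 18.8 and 18.4 scaled RPKM in the WT libraries with DMSO, at 17.8 and 21.4 with DMSO+EGF and at 16 and 19.1 with cordycepin+EGF. In AMPK KO KIF4A stood at 17.5 and 20.5 with DMSO, at 20.7 and 19.1 with DMSO+EGF and at 13.2 and 15.4 with cordycepin+EGF. KIF4A, a chromosome-binding motor, had its lowest 2 values with cordycepin in AMPK KO and overlapped in WT, where each cordycepin library lay under the DMSO+EGF library of its number, and its log2 fold change was -0.31 (adjusted p = 0.211, SE 0.101) in the mean of both lines.

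KIF11 stood at 42.1 and 25.8 scaled RPKM in the WT libraries with DMSO, at 37.2 and 38 with DMSO+EGF and at 21.6 and 22.4 with cordycepin+EGF. In AMPK KO KIF11 stood at 23.5 and 22.2 with DMSO, at 28.2 and 24.1 with DMSO+EGF and at 24.3 and 34.2 with cordycepin+EGF. In WT the cordycepin libraries of KIF11, the motor that pushes the spindle poles apart, were the lowest of the line, and replicate 2 of WT DMSO was far above replicate 3. KIF20B stood at 21.8 and 13.5 scaled RPKM in the WT libraries with DMSO, at 18.5 and 17.8 with DMSO+EGF and at 12.3 and 11.2 with cordycepin+EGF. In AMPK KO KIF20B stood at 13.2 and 11.6 with DMSO, at 14.6 and 15.1 with DMSO+EGF and at 14.1 and 17.3 with cordycepin+EGF. KIF20B, a motor of late mitosis, had the same order in WT, with the cordycepin libraries under the other 4. KIF20A stood at 40.0 and 32.2 scaled RPKM in the WT libraries with DMSO, at 34.6 and 39 with DMSO+EGF and at 28 and 28.6 with cordycepin+EGF. In AMPK KO KIF20A stood at 29.4 and 25.2 with DMSO, at 33.7 and 31.5 with DMSO+EGF and at 29.4 and 35.7 with cordycepin+EGF. For KIF20A, which acts in cytokinesis, the WT cordycepin libraries again lay under the other 4, and the AMPK KO groups overlapped. In WT the log2 fold changes were -0.76 (adjusted p = 0.267, SE 0.225) for KIF11, -0.61 (adjusted p = 0.267, SE 0.199) for KIF20B and -0.37 (adjusted p = 0.288, SE 0.146) for KIF20A. In AMPK KO they were 0.14, 0.073 and -0.0074.

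The 4 genes of the anaphase promoting complex and mitotic exit (CDC20, UBE2C, PTTG1 and CDCA3) were below 0 in both lines, with a median of -0.19 in the mean of both. UBE2C, the ubiquitin-conjugating enzyme of the complex, was at -0.45 (adjusted p = 0.137, SE 0.147) in AMPK KO, and PTTG1, which encodes securin, was among the 3 members with the largest SE, with 0.317. The 3 cytokinesis genes (ECT2, RACGAP1 and ANLN) were also below 0 in both lines. ECT2 stood at 19.3 and 16.5 scaled RPKM in the WT libraries with DMSO, at 18.1 and 18.2 with DMSO+EGF and at 13.5 and 14.8 with cordycepin+EGF. In AMPK KO ECT2 stood at 16.5 and 17.1 with DMSO, at 19.2 and 18.2 with DMSO+EGF and at 13 and 17.7 with cordycepin+EGF. In both lines the cordycepin libraries of ECT2, the exchange factor that starts the cleavage furrow, lay under those with DMSO+EGF, with a log2 fold change of -0.32 (adjusted p = 0.212, SE 0.104) in the mean of both lines. TOP2A stood at 96.4 and 106 scaled RPKM in the WT libraries with DMSO, at 90.8 and 108 with DMSO+EGF and at 78.8 and 100.4 with cordycepin+EGF. In AMPK KO TOP2A stood at 103 and 109.5 with DMSO, at 113 and 107 with DMSO+EGF and at 70.0 and 95.5 with cordycepin+EGF. In AMPK KO the cordycepin libraries of TOP2A, which decatenates chromosomes, were the lowest 2 of 6, and in WT the groups overlapped, each cordycepin library lying under the DMSO+EGF library of its number. Its log2 fold change was -0.43 (adjusted p = 0.211, SE 0.179) in AMPK KO and -0.15 (adjusted p = 0.685, SE 0.179) in WT, and that of MKI67 -0.039 in the mean of both lines.

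**Figure D5:**
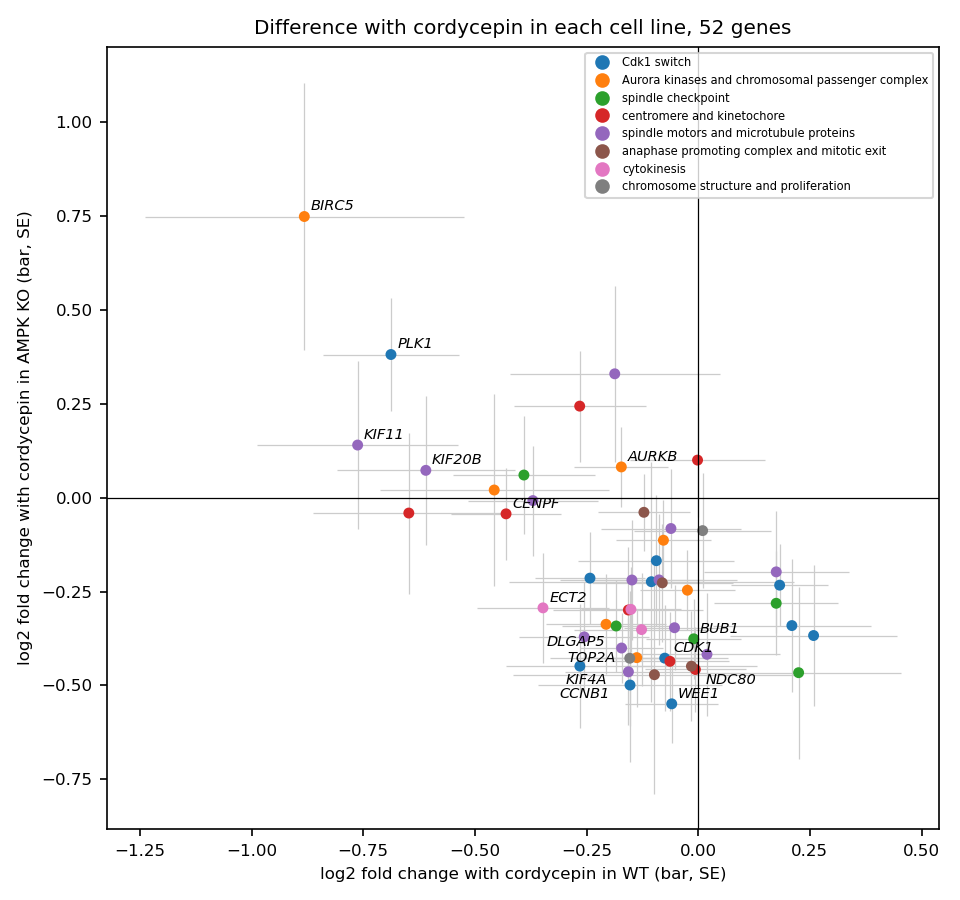
Log2 fold change with cordycepin+EGF against DMSO+EGF in WT (x axis) and in AMPK KO (y axis) for each of the 52 genes, coloured by role, with bars of 1 SE in each direction. 34 genes lie below 0 on both axes and none above 0 on both, with WEE1 lowest on the y axis at -0.55 and BIRC5, KIF11 and PLK1 at -0.88, -0.76 and -0.69 on the x axis and above 0 on the y axis.

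Whether the difference with cordycepin itself differed between the lines was tested as an interaction (AMPK KO minus WT). No member passed the adjustment, and neither did any other of the tested genes (0%). At an unadjusted p under 0.05, 5 members were above 0 and 6 below, beside 10.9% and 10.5% of all tested genes, which is near the background in both directions. These counts moved when 1 library was left out, and the numbers over all tested genes moved too. The median interaction of the 52 was -0.14, beside 0.019 over all tested genes. Without AMPK KO cordycepin+EGF replicate 2 it was -0.045, beside -0.0096 over all tested genes. Without replicate 3 of that group it was -0.26, beside 0.045. Voom on recovered reads called 3 of 51 members (BIRC5, KIF11 and PLK1), beside 10.3% of all genes in that fit, and with 1 or the other WT DMSO library left out these 3 and KIF20B were called, beside 9.06% and 9.09%. The interaction was 1.07 (unadjusted p = 0.000763, adjusted p = 0.122, SE 0.215) for PLK1, 1.63 (adjusted p = 0.142, SE 0.505) for BIRC5, 0.90 (adjusted p = 0.165, SE 0.318) for KIF11 and -0.49 (unadjusted p = 0.00916, adjusted p = 0.139, SE 0.148) for WEE1. In 4 members (PLK1, BIRC5, SPC24 and NUSAP1) the cordycepin libraries lay under DMSO+EGF in WT and above it in AMPK KO without overlap, a smaller share than the 10.1% of all tested genes. These 4 were not chosen by a fixed rule and were picked out after their values were seen. For NUSAP1 the order in AMPK KO rests on 0.703 scaled RPKM in cordycepin+EGF replicate 3 against 0.699 in DMSO+EGF replicate 3. The opposite order, lower in AMPK KO and higher in WT without overlap, held in 2 members (CDC25C and PRC1), beside 9.06% of all tested genes.

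With 30 min of EGF the members were on both sides of DMSO in WT and mostly above it in AMPK KO. In WT, 30 of 52 were below 0 (median -0.027, 0.016 over all tested genes), and in AMPK KO 15 of 52 (median 0.10, 0.0063 over all tested genes). The median in AMPK KO was 0.057 without DMSO+EGF replicate 2, and that in WT was 0.032 and -0.11 without DMSO+EGF replicate 2 and 3. In AMPK KO both DMSO+EGF libraries lay above both DMSO libraries in 23 members and under them in 4, beside 20.2% and 18.7% of all tested genes, and in WT in 7 and 12, beside 18.7% and 18%. No member passed the adjustment in either line, where 0.0227% and 0.0136% of all tested genes did. At an unadjusted p under 0.05, 3 members were higher and 1 lower in WT, beside 6.18% and 3.53% of all tested genes, and 0 in AMPK KO, beside 1.03% and 1.40%. By voom 0 members passed the adjustment, beside 0.0377% of the 21245 genes in that fit in WT and 0.0188% in AMPK KO. At the unadjusted threshold 3 members were higher and 4 lower in WT, beside 992 and 899 of the 21245 genes. In AMPK KO 0 members passed that threshold, beside 159 higher and 278 lower genes. SPC24 stood at 14.1 and 14.8 scaled RPKM in the WT libraries with DMSO, at 20.4 and 20.6 with DMSO+EGF and at 14.5 and 19.9 with cordycepin+EGF. In AMPK KO SPC24 stood at 15.8 and 17.3 with DMSO, at 14 and 14.3 with DMSO+EGF and at 15.6 and 18.1 with cordycepin+EGF. For SPC24, a subunit of the NDC80 complex, the WT libraries with DMSO+EGF lay above those with DMSO without overlap, and in AMPK KO they lay below. CDCA3 stood at 9.84 and 10.8 scaled RPKM in the WT libraries with DMSO, at 13.1 and 11.9 with DMSO+EGF and at 11.6 and 11.3 with cordycepin+EGF. In AMPK KO CDCA3 stood at 10.8 and 11 with DMSO, at 10.1 and 9.60 with DMSO+EGF and at 9.68 and 9.47 with cordycepin+EGF. CDCA3, a trigger of mitotic entry that acts in the destruction of WEE1, was likewise higher with EGF in WT, and the AMPK KO values with EGF lay below those without. The log2 fold change in WT was 0.49 (adjusted p = 0.446, SE 0.148) for SPC24, 0.31 (adjusted p = 0.485, SE 0.106) for AURKB, 0.27 (adjusted p = 0.497, SE 0.102) for CDCA3 and -0.25 (adjusted p = 0.512, SE 0.112) for NDC80, and that of WEE1 0.070 (adjusted p = 0.836, SE 0.105). Without WT DMSO replicate 2, BIRC5 was called as higher with EGF in WT, 1 of 52 members beside 3.18% of all tested genes, where WT DMSO replicate 3 is the only library it is compared with.

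The interaction of EGF with the cell line passed the adjustment in no member and in 0% of all tested genes. Of the members, 3 were above 0 and 3 below at an unadjusted p under 0.05, beside 3.30% and 5.38% of all tested genes. Voom called 0, with 6 above and 3 below at that threshold, beside 846 and 1124 of the 21245 genes in that fit. The values were -0.71 (adjusted p = 0.569, SE 0.210) for SPC24, -0.41 (adjusted p = 0.570, SE 0.145) for CDCA3, -0.39 (adjusted p = 0.570, SE 0.149) for AURKB and 0.48 (adjusted p = 0.570, SE 0.184) for AURKA. The DMSO+EGF libraries enter both the EGF and the cordycepin comparisons, so a high value in them moves these 2 apart.

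NDC80 was the 1 member of 52 that passed the adjustment between the 2 cell lines over the 3 treatments, a smaller share than the 4.34% of all tested genes. As the mean over the 3 treatments, its level in AMPK KO was 1.40 times that in WT, a log2 fold change of 0.48 (unadjusted p = 4.16e-05, adjusted p = 0.00622, SE 0.0649). Within each treatment both AMPK KO libraries lay above both WT libraries: 17.5 and 17.2 against 13.5 and 12.8 scaled RPKM with DMSO, 19.8 and 17.7 against 10.9 and 10.9 with DMSO+EGF, and 12.5 and 14.6 against 10.4 and 11.4 with cordycepin+EGF. The lowest AMPK KO library was under the highest WT library, so the 6 libraries of a line overlapped with those of the other across treatments. Its adjusted p was between 0.00787 and 0.0347 when 1 library was left out and between 0.000795 and 0.0203 under the other alternatives. Past an unadjusted p of 0.05 were 1 higher member (NDC80) and 2 lower ones, CDCA3 at -0.17 (adjusted p = 0.159, SE 0.0591) and BIRC5 at -0.53 (adjusted p = 0.190, SE 0.206), beside 10.9% and 9.44% of all tested genes. The median of the 52 was -0.033 (0.0011 over all tested genes). The adjusted count was 2 (NDC80 and BIRC5) without WT DMSO replicate 3, beside 13.1% of all tested genes there.

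With DMSO alone, 29 of 52 members were lower in AMPK KO than in WT and the median was -0.082 (0.0093 over all tested genes). No member passed the adjustment (0.440% of all tested genes did), while 2 were higher and 8 lower at an unadjusted p under 0.05, beside 12% and 9.29% of all tested genes. The log2 fold changes were 0.39 (adjusted p = 0.119, SE 0.112) for NDC80, -0.54 (adjusted p = 0.125, SE 0.158) for BUB1B, -0.36 (adjusted p = 0.160, SE 0.123) for CENPF and -0.39 (adjusted p = 0.180, SE 0.146) for KIF20A. WEE1 was at 0.18 (adjusted p = 0.353, SE 0.105), with both AMPK KO libraries above both WT libraries. The shallowest library takes part in this comparison: without WT DMSO replicate 3, 5 members passed the adjustment (BIRC5, BUB1B, KIF11, KIF20B and NUF2), beside 13.9% of all tested genes there, and the median was -0.016. At the unadjusted threshold fewer members, and fewer of all tested genes, were lower without WT DMSO replicate 2 or without AMPK KO DMSO replicate 3. Voom on recovered reads called BUB1B, 1 of 51 members beside 8.32% of all genes in that fit.

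The wider machinery was looked at in 135 further mitosis and G2/M genes, all of which were tested: the MuvB, DREAM, B-MYB and FOXM1 regulators, checkpoint kinases, subunits of the anaphase promoting complex, cohesin and condensin, kinetochore and spindle proteins. With cordycepin in AMPK KO, 46 (34.1%) were lower and 3 higher at an unadjusted p under 0.05, beside 15.1% and 10.2% of protein-coding genes. The median was -0.23, and 1 of the 135 passed the adjustment, beside 0.471% of all tested genes. This was MIS12, a subunit of the kinetochore's inner scaffold, with a log2 fold change of -0.78 (adjusted p = 0.0494, SE 0.131). In WT, 19 (14.1%) were lower and 6 higher, beside 10.0% and 8.27% of protein-coding genes, with a median of -0.038 and none called. The smallest p were those of the anaphase promoting complex subunit ANAPC7 at -0.57 (adjusted p = 0.267, SE 0.178) and the condensin gene SMC4 at -0.51 (adjusted p = 0.267, SE 0.158). In the mean of both lines 29 (21.5%) were lower and 0 higher, beside 7.47% and 6.79% of protein-coding genes, with a median of -0.16. The smallest p were those of FAM83D, which positions the spindle, at -0.39 (adjusted p = 0.0540, SE 0.0739) and the inhibitor of the anaphase promoting complex FBXO5 at -0.45 (adjusted p = 0.0610, SE 0.0912). Among the 20 genes of cohesin, separase and condensin, 19 were below 0 in that mean and 10 were lower at an unadjusted p under 0.05. Among the 14 regulators of MuvB, DREAM and their activators, 11 were below 0 and 2 were lower at that threshold. Beside these 2 role groups, 53.3% of all tested genes were above 0 in that mean. Of protein-coding genes 7.47% were lower at that threshold. The other role groups of this list are not given here. The interaction of cordycepin and cell line was above 0 in 14 and below in 38 (28.1%) at that threshold, beside 13.2% and 14.6% of protein-coding genes, with the smallest p for SKA1 at -1.54 (adjusted p = 0.122, SE 0.326) and ANAPC7 at 1.12 (adjusted p = 0.122, SE 0.251).

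Between AMPK KO and WT, 10 of the 135 (7.41%) passed the adjustment in the mean of 3 treatments, 7 of them higher, beside 5.81% of protein-coding genes. SGO2, the guardian of centromeric cohesin, rose with a log2 fold change of 0.61 (adjusted p = 0.00601, SE 0.0810), FBXO5 with 0.50 (adjusted p = 0.00884, SE 0.0744) and the CENPA chaperone HJURP with 0.47 (adjusted p = 0.00835, SE 0.0682), and the kinetochore gene CENPU fell with -0.47 (adjusted p = 0.0106, SE 0.0736). With DMSO alone none was called, and CENPU at -0.63 (adjusted p = 0.0623, SE 0.127) and GAS2L3 at -0.48 (adjusted p = 0.0931, SE 0.121) had the smallest p. With EGF none was called in WT, where 6 were higher and 13 (9.63%) lower at an unadjusted p under 0.05, beside 7.21% and 2.99% of protein-coding genes, or in AMPK KO, where 0 were. PIMREG at 0.74 (adjusted p = 0.417, SE 0.159) and CENPM at 0.75 (adjusted p = 0.436, SE 0.195) had the smallest p in WT, and the same held for the interaction of EGF and cell line for CENPM at -1.08 (adjusted p = 0.569, SE 0.276) and CKAP2 at 0.57 (adjusted p = 0.569, SE 0.175). At the unadjusted threshold that interaction had 16 (11.9%) above and 8 (5.93%) below 0, beside 3.20% and 5.99% of protein-coding genes.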

How the data were processed

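RNA was sequenced from 12 HEK293 libraries, 2 in each of 6 groups (replicate numbers 2 and 3), replicate 1 having been dropped by the study in every condition. The libraries were stranded and depleted of ribosomal RNA. The authors aligned the paired 150-base reads to GRCh38.p13, obtained read numbers of genes by Rsubread, and turned these into the deposited RPKM, 1 value a gene and library. The version of the counter, the gene annotation, the strand setting of the counting and the rule for listing genes are not given in the sources used here. The 2 rows that name no gene were left out of all tests.

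Identifiers were matched to GENCODE release 44 (26029 of 26058). Each library was scaled by its upper quartile, genes whose RPKM averaged 0.5 or more were kept, and log2(scaled RPKM + 0.5) was fitted in limma 3.58.1 (R 4.3.3, eBayes with trend) on group means, with all 12 libraries in 1 fit, 6 residual degrees of freedom and Benjamini-Hochberg adjustment over the 22067 genes tested. Tests were two-sided. Fold changes are on this log2 scale and understate the change of low genes. Values in every library are given for WEE1, for the members past the adjustment in a comparison or otherwise up to 4 with the smallest unadjusted p under 0.05, and for CDK1, CCNB1, PLK1, AURKB and TOP2A. Further mitosis genes were named likewise, at most 4 called genes or otherwise 2 a comparison. The members and lists were chosen with earlier results of these data known. Other pseudocounts, filters, scalings, weights and blocks were tried, each library was left out in turn, and voom was run on whole reads recovered from the RPKM steps, which 96.4% of genes gave in all libraries (tolerance 0.05 reads). The fit was tested on simulated data.

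Deviations of equally numbered libraries went together in WT (r across genes of the differences between replicates 0.14, 0.28 and 0.31 for the 3 pairs of groups) and not in AMPK KO (-0.12, -0.068 and 0.031). Between a WT and an AMPK KO group r ran from -0.081 to 0.32, highest for WT cordycepin+EGF with AMPK KO DMSO. The pairing is read from these correlations, since the labels give the number alone.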

Additional observations from a re-analysis of the deposited data

How the results depend on the processing

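The difference of each member named for its p kept its direction under every alternative run, and 35 to 46 members were below 0 with cordycepin in WT, 38 to 47 in AMPK KO and 42 to 50 in the mean of both lines, while the median for EGF in WT (-0.027) was above 0 on the RPKM as deposited (0.0010) and without WT DMSO+EGF replicate 2 (0.032). The number of members past an adjusted p of 0.05 moved. By voom on recovered reads it was 2 of 51 for cordycepin in WT, 1 for cordycepin in AMPK KO, 1 for AMPK KO against WT in DMSO, 2 for AMPK KO against WT over 3 treatments and 3 for the interaction of cordycepin and cell line, beside 3.66%, 4.95%, 8.32%, 10.4% and 10.3% of all genes in that fit. With array weights it was 4 for cordycepin in AMPK KO, 1 in the mean of both lines and 2 for the interaction of cordycepin and cell line, beside 5.41%, 2.37% and 6.6% of all genes, and a fit to only the groups compared also gave 2 for that interaction, beside 5.11%. Leaving out 1 library at a time gave 0 to 1 for EGF in WT, 0 to 4 for cordycepin in AMPK KO, 0 to 5 for AMPK KO against WT in DMSO, 1 to 2 over 3 treatments and 0 to 4 for the interaction of cordycepin and cell line. The members lower at an unadjusted p under 0.05 with cordycepin then numbered 4 to 9 in WT, 5 to 21 in AMPK KO and 6 to 24 in the mean of both lines. The numbers over all tested genes moved in these fits too, and the cause of these moves was not tested. With the replicate block, the paired fit, no count of adjusted calls changed (0 members, and 1 for AMPK KO against WT over 3 treatments). At the unadjusted threshold 9 members were lower with cordycepin in WT, 24 in AMPK KO and 20 in the mean of both lines. Of the 22067 tested genes 1616, 2467 and 1331 were lower in that fit, against 1574, 2227 and 1158 without the block. When the block was set per cell line 7, 24 and 20 members were lower, beside 1663, 2393 and 1260 of all tested genes. Depth and number limit these results: the groups hold 2 libraries each, and the median SE of a member's difference with cordycepin in the mean of both lines was 0.107 on the log2 scale.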
